A study of Mus musculus with 8 samples.

Results

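Long-term hematopoietic stem cells of 18-month-old mice were ranked, within each library, by how much of their RNA came from 8 genes of the stem cell aging signature, and the cells with the highest scores were compared with the cells with the lowest. The score of a cell was the percentage of its transcripts from Selp, Nupr1, Aldh1a1, Clu, Sult1a1, Ehd3, Gda and Tgm2. Of 1536 barcodes in the tables of all 8 libraries, 728 belonged to the sort of their library, 499 of these had at least 2000 transcripts, and 495 lay in the 7 libraries that had at least 20 such cells. Each library was cut into a high, a middle and a low tercile (equal parts by rank), which gave 162 high cells, 171 middle cells and 162 low cells in all. The low tercile held fewer von Willebrand factor transcripts in all 7 libraries, and 35 of its cells carried DNA replication and mitosis transcripts above a set level against 1 cell of the high tercile. That level was set after seeing the data. Cells above it had a median of 7819 transcripts against 4657 in the others, and the score is divided by that total. Matched on total transcripts, the cycle genes Top2a and Hmgb2 did not pass, while Pcna did.

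All groups were male C57BL/6J mice from JAX, given no treatment, and cells were sorted from bone marrow as Lin-, CD150+, CD48-, CD34-, Kit+ and Sca1+, then split on the surface protein Dlk1 into a Dlk1+ and a Dlk1- population. There were 4 libraries of each sort, each of 96 wells according to the labels. The 7 libraries used held 100707 to 514864 transcripts each, and they share plate barcodes by design, with 0 identical cell profiles between them. All Dlk1- libraries (94, 34, 92 and 88 cells) and 3 Dlk1+ libraries (82, 26 and 79 cells, replicates 1, 2 and 4) entered the split, and Dlk1+ replicate 3, with 4 cells of sufficient depth, did not. The labels name no animal for any library, so the p-values measure the spread between these libraries, which may be partly technical. The mice are of 1 age only, so a high score ranks cells of old animals against each other and not against young ones.

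Long-term stem cells sit at the top of blood formation and divide rarely. With age their number in the marrow grows, while their output shifts toward platelets and myeloid cells, and a recurrent set of transcripts accumulates in them. The score holds the leading members of that set. Selp encodes P-selectin, an adhesion receptor of platelets and endothelium, Nupr1 a stress-induced transcriptional regulator, Aldh1a1 a retinaldehyde dehydrogenase and Clu the secreted chaperone clusterin. Sult1a1 encodes a sulfotransferase, Ehd3 an endocytic recycling protein, Gda guanine deaminase and Tgm2 transglutaminase 2.

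Cells were chosen by the values of these 8 genes, which are therefore given as a description. The median score of a library was between 0.107% and 0.229%. In the high tercile the medians ran from 0.190% to 0.352%, and in the low tercile from 0.0356% to 0.166%. The terciles met closely in Dlk1- replicate 3, where the last cell of the low tercile had 0.0702% and the first of the middle tercile 0.0729%, while the last middle cell had 0.1498% and the first high cell 0.1499%. A score rested on few molecules, with a median of 9 to 16 unique molecular identifiers (UMIs, which count RNA molecules) in high cells and 2 to 9 in low cells. Between cells of 1 library the score counts varied 2.06 to 3.02 times as much as counting error alone would give. Tgm2 supplied 21.1% of all score UMIs, Gda 15.8%, Sult1a1 15.7%, Selp 14.6% and Aldh1a1 13.0%, and Clu, Ehd3 and Nupr1 between 6.12% and 7.36% each. Selp had a UMI in 75.9% of high cells, 63.7% of middle cells and 38.3% of low cells, and Sult1a1 in 79.0%, 57.3% and 27.8%.

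**Figure D1:**
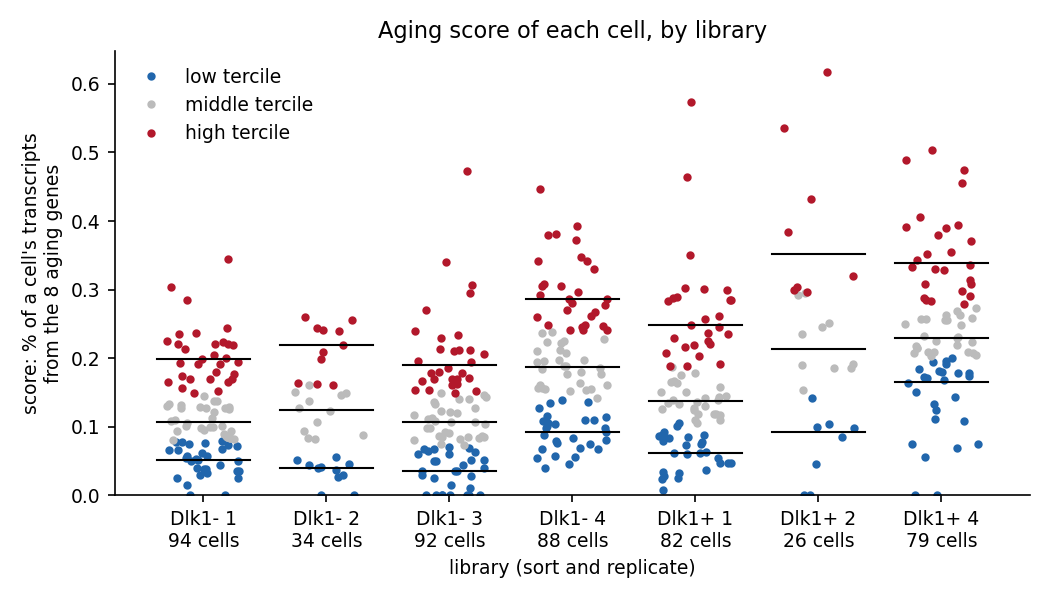
Score of each of the 495 cells (vertical axis, % of its transcripts from the 8 aging genes) in the 7 libraries (horizontal axis), coloured by tercile, with the median of each tercile as a line. The terciles meet closely in most libraries, Dlk1- replicate 2 has a gap between 0.0558% and 0.0816% where its low and middle cells part, and the library medians of the high tercile lie between 0.190% and 0.352%.

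To see whether the 8 genes moved together, each was left out in turn, the cells were split by the other 7, and the left-out gene was tested among all genes. Selp, Nupr1, Sult1a1, Gda and Tgm2 passed, and these 5 of 8 genes were higher in cells that scored high for the rest of the set. The 8 genes were chosen with earlier results of these data known. The left-out gene and the other 7 are scaled to totals of the same transcripts. No such fit left out Gm10800 and Gm26870 or cells with replication and mitosis transcripts. Whether the genes moved together apart from that shared total was not tested beyond depth matching and thinning. Sult1a1 had 166, 371 and 679 CPM (counts scaled to 1000000 per sum; lowest, median and highest of 7 libraries) in the high tercile and 10.95, 123 and 368 in the low tercile. Its log2 fold change was 0.93 ± 0.20 (SE), it was higher in 7 of 7 libraries, and its adjusted p from limma was 0.0057, in a fit that called 4.43% of all genes. Nupr1 reached 0.94 ± 0.28 (adjusted p = 0.041, 6.68% of genes called) and Selp 0.68 ± 0.18 (adjusted p = 0.024, 5.07% called). Gda reached 0.63 ± 0.17 (adjusted p = 0.012, 6.18% called) and Tgm2 0.53 ± 0.16 (adjusted p = 0.049, 6.22% called), each higher in 7 of 7 libraries. Clu, at 0.70 ± 0.27 (adjusted p = 0.098, 9.73% called), and Ehd3, at 0.61 ± 0.25 (adjusted p = 0.15, 8.12% called), were higher in 6 of 7 libraries without passing. Sult1a1 passed when any 1 library was left out. Gda did not pass without Dlk1- replicate 4 or Dlk1+ replicate 4, Selp without Dlk1- replicate 3, Dlk1- replicate 4 or Dlk1+ replicate 1, Tgm2 without any of 5 libraries (Dlk1- replicates 1, 2 and 3, Dlk1+ replicates 1 and 4), and Nupr1 without any library other than Dlk1+ replicate 1. Aldh1a1 differed by 0.02 ± 0.18 (95% interval -0.35 to 0.40, adjusted p = 0.97, 9.48% called) and was higher in 4 of 7 libraries. When cells were first matched for total transcripts in groups of 3, none of the 8 passed (limma, adjusted p from 0.33 to 0.90), 2 had an unadjusted p under 0.05, and all 8 differences were positive, from 0.13 to 0.48.

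**Figure D2:**
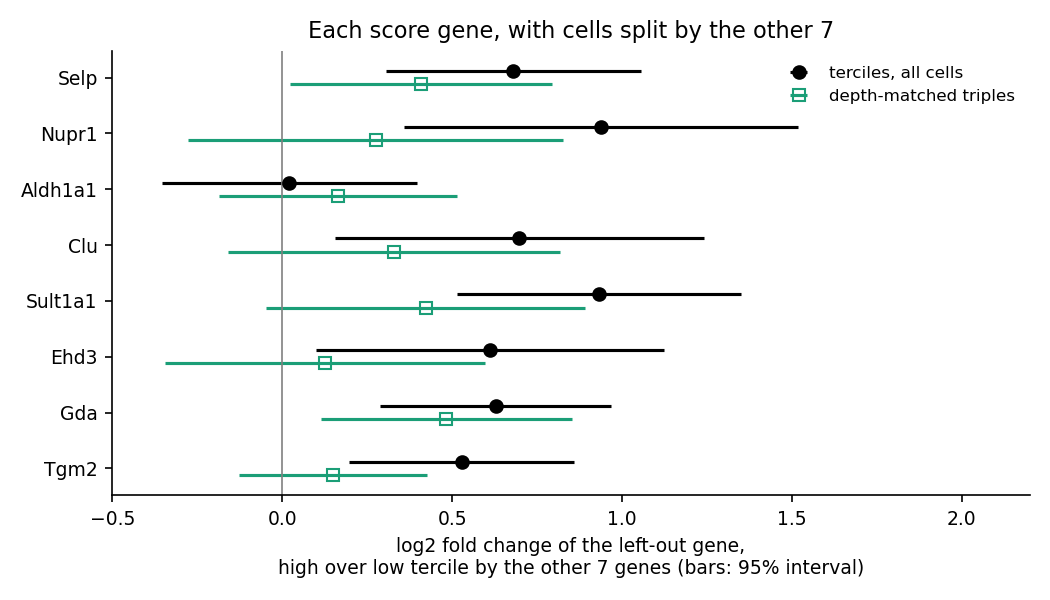
Log2 fold change (horizontal axis) of each score gene (vertical axis) between the high and low tercile of cells split by the other 7 genes, with 95% intervals, for all cells and for groups of 3 cells matched on total transcripts. Aldh1a1 lies at 0.02 among all cells, and the matched values of all 8 genes lie between 0.13 and 0.48.

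Cell depth and 1 cell rich in myeloid transcripts differed between the terciles, and their part in the results below was not tested beyond the values given. High cells had fewer transcripts than low cells in 5 of 7 libraries, with library medians of 2519, 4791 and 5530 (lowest, median, highest) against 3286, 5021 and 7633. The low tercile of Dlk1+ replicate 4 held 1 cell of 37287 transcripts with 1958 UMIs of the myeloid granule markers Mpo, Elane, Prtn3, Ctsg, S100a8 and S100a9, 5.39% of its UMIs and 18.9% of the transcripts of that tercile, while no other cell had more than 11 such UMIs. Without that cell 50 genes were higher and 82 lower. The 9 stem cell markers, among them Procr, Fgd5, Hlf, Mecom, Mllt3, Slamf1, Ly6a and Kit, were all detected and summed to 2215 to 2840 CPM in the high tercile and 1540 to 2572 CPM in the low tercile. Among markers of other cell types, Klf1, Car1 and Alas2 (erythroid), Pax5 (B cell), Cd3d, Cd3e, Cd3g and Trac (T cell), Cdh5 and Stab2 (endothelium) and Lyz2 (myeloid) had no UMI in either tercile. Other markers of these types were detected. Erythroid markers (3 of 7 detected) summed to 55 UMIs in high and 63 in low cells, and B cell markers (4 of 6) to 24 and 24. Endothelial markers (5 of 7) summed to 69 and 71 UMIs, and stromal markers (5 of 5) to 12 and 26. The summed myeloid markers were higher in the high tercile in 6 of 7 libraries (median 338 against 232 CPM), with up to 9037 CPM in the low tercile that held the myeloid-rich cell. Of 5 T and NK cell markers only 1, Nkg7, was detected, with 0 UMIs in high cells and 23 in low cells. The summed megakaryocyte markers were 85.2 to 162 CPM in the high tercile and 72.1 to 484 CPM in the low tercile, higher in 2 of 7 libraries, with Ppbp at 0.

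Genes outside the score were tested on counts summed per library and tercile, with the library as a block. Of 1864 genes tested, 58 were higher in the high tercile (3.11%) and 76 lower (4.08%) at an adjusted p under 0.05, and the median log2 fold change over all of them was -0.04. Scaling to library size alone in place of TMM gave 273 higher and 44 lower genes, with 86.1% of calls higher against 43.3%, and moved the median of all genes to 0.24. The higher genes included stem cell and aging genes, immediate early genes and ribosomal protein genes, and the lower genes cell cycle genes and predicted gene models that share sequence. Of the higher genes, 34 rose in every library, and of the lower genes, 43 fell in every library. After matching on total transcripts, 6 of 1749 genes were higher (0.343%) and 28 lower (1.6%). After leaving out cells with replication and mitosis transcripts, 1 of 1363 was higher (0.0734%) and 31 lower (2.27%). Only Vwf was called higher in all 3 comparisons, and 19 genes were called lower in all 3, all of them predicted or unnamed gene models. Gm10800 and Gm26870 are among these 19. They are part of the total that the score is divided by in all 3, so their repeated calls are not independent results.

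Vwf encodes von Willebrand factor, the platelet adhesion glycoprotein, and marks stem cells with a platelet bias. It belongs to the aging genes outside the score and lies on chromosome 6 (mm10, chr6:125546774-125686679, plus strand). In the high tercile it had 113, 204 and 214 CPM (lowest, median and highest of 7 libraries), and in the low tercile 54.5, 67.4 and 156 CPM. The high tercile was above the low tercile in all 7 libraries, although the ranges of both terciles overlapped. The log2 fold change was 1.12 ± 0.23 (SE), a 2.18-fold difference, with an adjusted p of 0.0021 from limma. It was 0.93 after matching on depth (adjusted p = 0.018), 1.02 without cells with replication and mitosis transcripts (adjusted p = 0.041), and it stayed called when any 1 library was left out (largest adjusted p = 0.0080). When cells were thinned to 2000 UMIs before the score was taken, 6 aging genes outside the score were tested and 0 were called higher. Vwf was thus not called in that fit. With the terciles kept as made at full depth and each cell reduced to 2000 UMIs, 61 of 161 high cells had a Vwf UMI (37.9%), 48 of 171 middle cells (28.1%) and 22 of 161 low cells (13.7%). Hbb-bs, a red cell transcript that stem cells should lack, had one in 2.48%, 4.68% and 1.24%.

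Cyp26b1 and Apoe were also higher in every library. Cyp26b1, an enzyme that degrades retinoic acid (chr6:84571414-84593908, minus strand), had 62.6, 169 and 756 CPM in the high tercile against 16.4, 68.1 and 216 CPM in the low tercile. Its log2 fold change of 1.37 ± 0.26 (adjusted p = 0.0012) came from 114 UMIs against 44. Apoe, the lipoprotein component apolipoprotein E (chr7:19696109-19699188, minus strand), had 777, 877 and 2078 CPM against 367, 538 and 1189 CPM, a log2 fold change of 0.71 ± 0.12 (adjusted p = 0.00018). The highest library of the low tercile exceeded the median of the high tercile for both genes. Matched on depth, Cyp26b1 differed by 1.09 (adjusted p = 0.030) and Apoe by 0.54 (adjusted p = 0.022). Without cells with replication and mitosis transcripts the values were 0.85 (adjusted p = 0.080) and 0.46 (adjusted p = 0.057), and neither passed. The other genes called higher after matching on depth were Clca3a1, Mycn and the pseudogene Rpl21-ps4, which were picked out after their values were seen and whose log2 fold changes in all cells were 0.89, 0.67 and 0.64 (without Dlk1- replicate 3, neither Mycn nor Rpl21-ps4 passed there, nor Rpl21-ps4 without Dlk1- replicate 2). Rpl21-ps4 is close in sequence to Rpl21, so its reads may come from that gene.

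**Figure D3:**
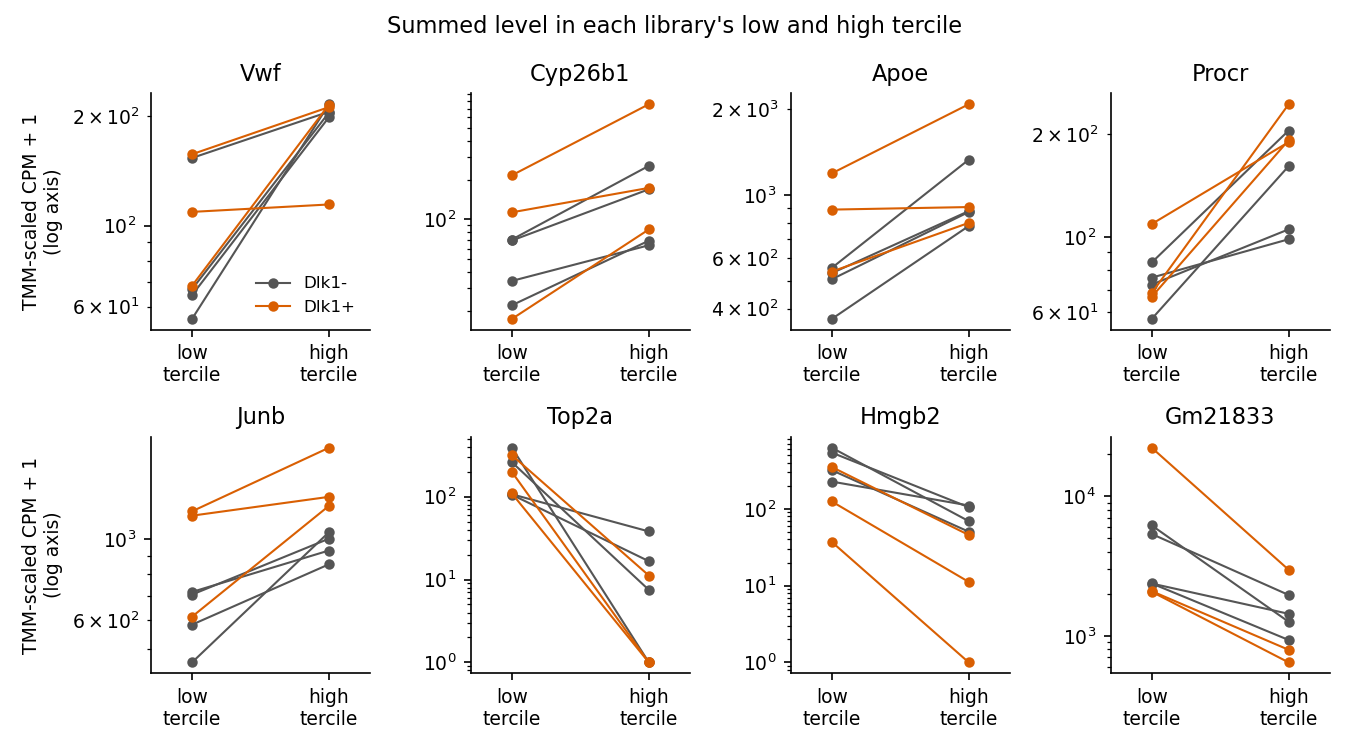
TMM-scaled CPM plus 1 (vertical axes, log scale) of 8 genes in the low and the high tercile of each of 7 libraries, 1 line a library, coloured by sort. Vwf, Cyp26b1, Apoe, Procr and Junb rise in every library and Top2a, Hmgb2 and Gm21833 fall in every library; Top2a had no UMI in the high tercile of 3 libraries.

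Of 43 other genes of the aging signature that were detected, 17 passed the filter on low counts. Vwf, Zfp36, Mllt3 and Egr1 rose, Cd9 fell and 12 did not pass, with a median log2 fold change of 0.44 against -0.04 over all genes. Over all genes 3.11% were called higher and 4.08% lower. Zfp36 and Egr1 are also on the immediate early list and Mllt3 on the stem cell identity list, so the same calls recur below. Zfp36, an mRNA decay factor, rose by 0.65 ± 0.10 (adjusted p = 0.00012), from a library median of 723 to 1109 CPM, and Mllt3, a chromatin reader that sustains stem cells, by 0.55 ± 0.16 (adjusted p = 0.029). Cd9, a tetraspanin that is abundant on platelets, fell by 0.64 on the log2 scale (adjusted p = 0.046). Matched on depth, the median of the list was 0.16 and only Vwf was called. Mllt3 did not pass without Dlk1- replicates 1, 2 or 4 or Dlk1+ replicate 4, and Cd9 passed with 1 library left out only when that was Dlk1+ replicate 4. Without the myeloid-rich cell neither Cd9 (adjusted p = 0.055) nor Egr1 (adjusted p = 0.11) passed.

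Of 22 stem cell identity genes tested, Procr, Mllt3, Lmo2, Pdzk1ip1, Ifitm1 and Ifitm3 rose, none fell and 16 did not pass. Over all genes 3.11% were called higher, and the list's median was 0.40 against -0.04. Procr, the endothelial protein C receptor that marks stem cells (chr2:155751117-155755471, plus strand), had 97.4, 189 and 244 CPM in the high tercile and 56.4, 71.4 and 108 CPM in the low tercile. The ranges overlapped between 97.4 and 108 CPM, and the log2 fold change was 1.13 ± 0.24 (adjusted p = 0.0024). Lmo2, a bridging factor of the stem cell transcription complex, rose by 0.38 ± 0.09 (adjusted p = 0.011). Ifitm1 and Ifitm3, interferon-induced membrane proteins, rose by 0.62 ± 0.09 (adjusted p = 6.7e-05) and 0.58 ± 0.12 (adjusted p = 0.0021). Slamf1, which encodes the CD150 of the sort, was higher in 7 of 7 libraries at 0.89 ± 0.31 without passing (adjusted p = 0.077), and Ly6a, the Sca1 antigen, in 6 of 7 at 0.66 (adjusted p = 0.061). Matched on depth the list's median was 0.08 with no member called, and without cells with replication and mitosis transcripts it was 0.15.

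Of 7 genes of multipotent progenitors and lymphoid priming (median -0.25), 1 fell and none rose, against 4.08% of all genes called lower. The gene that fell was Cdk6, the G1 kinase whose level separates cells near division from dormant stem cells. It had 130, 179 and 193 CPM in the high tercile and 144, 287 and 508 CPM in the low tercile, with 6 of 7 libraries lower and a log2 fold change of -0.91 ± 0.18 (adjusted p = 0.0015). The difference was -0.89 after matching on depth (adjusted p = 0.0033) and -0.57 without cells with replication and mitosis transcripts (adjusted p = 0.22). Ccnd2, a D-type cyclin that partners with Cdk6, moved the other way, by 0.62 ± 0.15 (adjusted p = 0.0092). Ccnd2 was not called after matching on depth or without cells with replication and mitosis transcripts. It also did not pass without Dlk1- replicate 3 (adjusted p = 0.054).

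Cell cycle transcripts were sparse in high cells. Of 23 S phase genes and 27 genes of G2 and mitosis detected, 4 of each passed the filter on low counts. A gene can pass it on the sums of the low tercile alone, as Top2a did, so the counts called are a description. All 4 S phase genes tested (Pcna, Mcm6, Mcm7 and Dut) and 3 of 4 genes of G2 and mitosis (Top2a, Hmgb2 and Tubb4b) fell. The list medians were -1.34 and -1.59, against -0.04 over all genes, of which 4.08% were called lower. Top2a, the topoisomerase that untangles chromosomes at mitosis (chr11:98992943-99024189, minus strand), had 0, 6.50 and 37.0 CPM in the high tercile and 104, 197 and 388 CPM in the low tercile. No library of the high tercile reached the lowest of the low tercile, and the totals were 11 UMIs against 179 (log2 fold change -3.95 ± 0.42, adjusted p = 3.5e-07). Hmgb2, a chromatin protein of dividing cells, had 57 UMIs against 307 (-2.24 ± 0.25, adjusted p = 5.2e-07). Pcna, the sliding clamp of DNA polymerase, had 89.3, 109 and 302 CPM against 214, 303 and 427 CPM (-1.30 ± 0.18, adjusted p = 2e-05). Outside these lists, Stmn1, Tubb5 and Tuba1a, which build or regulate microtubules, fell by 1.49, 0.99 and 1.08 on the log2 scale (adjusted p = 2.7e-07, 6.4e-06 and 2.1e-06). Tubb4b (-0.70) and Dut (-1.20) lost their calls without Dlk1- replicate 1 or Dlk1+ replicate 4, and Tubb4b also without Dlk1- replicate 2. Smc4, a condensin subunit, was lower in 6 of 7 libraries without passing (-0.93 ± 0.32, adjusted p = 0.076).

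Cells rich in S phase and mitosis transcripts were a minority. Cells with over 0.3% of UMIs from the S phase and mitosis lists, a level set after seeing the data, numbered 62 of 495 (12.5%), of which 35 lay in the low tercile, 26 in the middle and 1 in the high tercile. Near that level, 11 cells lay between 0.25% and 0.35%. The 62 cells had a median of 7819 transcripts against 4657 in the other 433 cells, a median of 6.5 score UMIs against 7, and a median score of 0.0837% against 0.164%. The total is the denominator of the score. Matched on depth, Top2a differed by -0.33 (adjusted p = 0.82), Hmgb2 by -0.39 (adjusted p = 0.62), Tubb4b by 0.09 and Tuba1a by 0.05. Pcna was still lower when matched (-0.71, adjusted p = 0.046), as was Ptma, the nuclear acidic protein prothymosin alpha (-0.29, adjusted p = 0.017, against -0.54 in all cells).

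**Figure D4:**
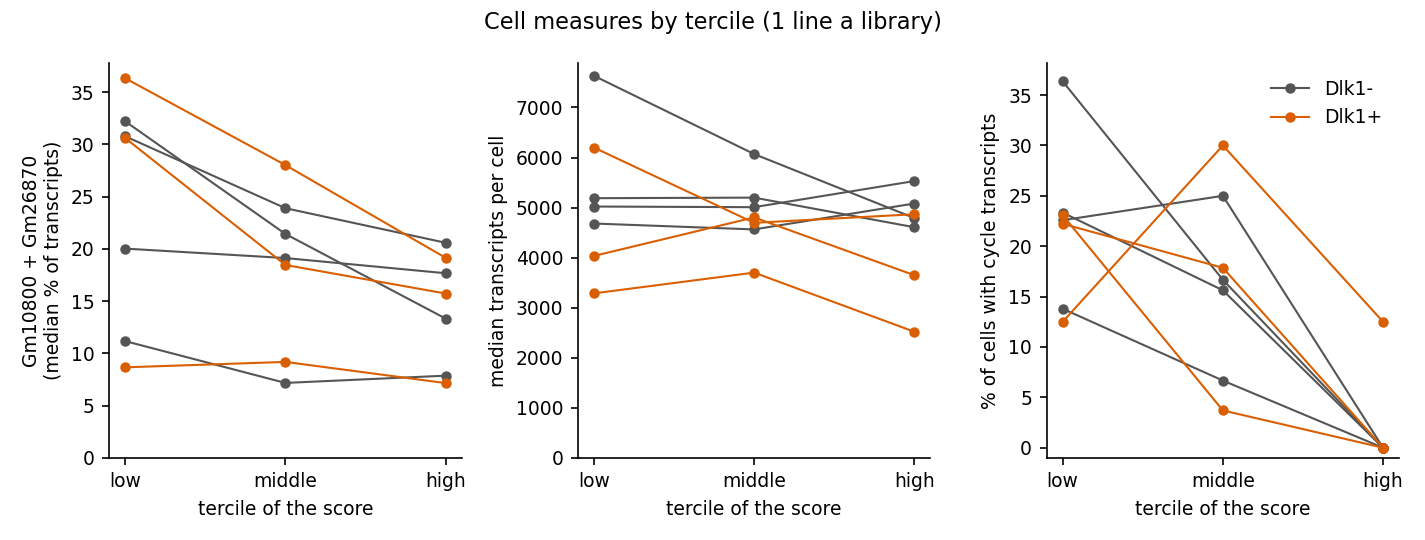
Median share of Gm10800 and Gm26870, median transcripts per cell and percentage of cells with over 0.3% S phase and mitosis UMIs (vertical axes) in the low, middle and high tercile (horizontal axes), 1 line a library coloured by sort. The share of Gm10800 and Gm26870 is lower in the high tercile in all 7 libraries, and cycling transcripts reach the high tercile in 1 library, with 1 cell.

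Promoters of the cell cycle genes are shown because these genes fell together. Of the 8 tested genes of both lists, 7 had a promoter in the RefSeq table of build GRCm38.p6 (250 bases before to 50 after the start). CCAAT, read on both strands, occurred in 6 of the 7 (Mcm6, Mcm7, Pcna, Hmgb2, Top2a and Tubb4b) against 41.1% of all 27025 genes with a promoter in the table. TTTGAA, the core of the cell cycle homology region, occurred in 3 (Hmgb2, Top2a and Tubb4b) against 20.2% of all genes, and GGCGGGAA, an E2F site, in none against 2.52%. None of these motifs contains another, and a match is a description of the sequence only. The Top2a promoter (chr11:99024140-99024439, minus strand) holds 6 copies of CCAAT or its reverse complement ATTGG and 2 of TTTGAA or its reverse complement TTCAAA, and that of Pcna (chr2:132253131-132253430, minus strand) holds 1 ATTGG. Capitals mark these matches, and both sequences run 5′ to 3′.
Top2a: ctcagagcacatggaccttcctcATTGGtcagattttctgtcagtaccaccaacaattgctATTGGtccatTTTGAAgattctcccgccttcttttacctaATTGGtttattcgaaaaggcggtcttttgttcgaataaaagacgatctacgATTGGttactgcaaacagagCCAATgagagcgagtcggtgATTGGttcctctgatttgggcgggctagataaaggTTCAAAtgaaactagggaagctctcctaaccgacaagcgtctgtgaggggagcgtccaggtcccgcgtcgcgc
Pcna: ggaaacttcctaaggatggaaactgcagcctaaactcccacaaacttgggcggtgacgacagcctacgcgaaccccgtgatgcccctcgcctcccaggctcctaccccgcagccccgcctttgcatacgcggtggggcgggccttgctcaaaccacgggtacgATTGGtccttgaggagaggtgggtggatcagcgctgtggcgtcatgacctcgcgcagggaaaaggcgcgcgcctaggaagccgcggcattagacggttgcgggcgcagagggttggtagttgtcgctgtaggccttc

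Immediate early genes are induced within minutes of a stimulus. Of 18 tested, Junb, Ier2, Zfp36 and Egr1 rose, none fell and 14 did not pass. Over all genes 3.11% were called higher, and the list's median was 0.40 against -0.04. The calls of Zfp36 and Egr1 are those already given for the aging genes. Junb, a subunit of the transcription factor AP-1, had 852, 1043 and 1776 CPM in the high tercile and 458, 703 and 1189 CPM in the low tercile (0.64 ± 0.11, adjusted p = 0.00039). Ier2 rose by 0.73 ± 0.14 (adjusted p = 0.0014), and Jund differed by 0.36 without passing (adjusted p = 0.072). Egr1 passed narrowly (0.45 ± 0.14, adjusted p = 0.048) and did not pass without the myeloid-rich cell or when any of 5 libraries (Dlk1- replicates 2, 3 and 4, Dlk1+ replicates 2 and 4) was left out. Matched on depth the list's median was 0.09, and without cells with replication and mitosis transcripts it was 0.00, with no member called in either.

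Of the other named genes that rose in every library, Nfkbiz, an inducible regulator of NF-κB, rose by 1.00 ± 0.21 (adjusted p = 0.0023) and Trim47, a ubiquitin ligase, by 0.66 ± 0.15 (adjusted p = 0.0043). Pdzk1ip1, a small membrane protein expressed in stem cells, rose by 0.81 ± 0.18 (adjusted p = 0.0044). Ftl1, the ferritin light chain, and Tsc22d1, a leucine zipper protein, each rose by 0.62 (adjusted p = 0.0015 and 0.0016). None of these 5 passed after matching on depth, where their differences were between 0.19 and 0.49.

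Ribosomal protein genes differed by small amounts. Of 74 tested, 8 rose, against 3.11% of all genes called higher, and none fell. A positive difference was seen in 66, with a median of 0.14 against -0.04 over all genes. Rps14 had 2596, 2685 and 4005 CPM in the high tercile and 1982, 2244 and 3459 CPM in the low tercile (0.28 ± 0.06, adjusted p = 0.0047), and Rps21 rose by 0.39 ± 0.09 (adjusted p = 0.0053). The others called were Rpl3, Rpl5, Rpl21, Rpl23, Rpl37 and Rps9, between 0.21 and 0.29, and each of these 6 lost its call when 1 or more single libraries were left out, Dlk1- replicate 2 for Rpl3. Matched on depth none was called and the median was 0.06. With Gm10800, Gm26870 and mitochondrial transcripts left out of the score's total and of the summed counts, 21 of 73 were higher. Over all genes that setting called 126 of 1710 higher. Library size alone gave 57 of 74, against 273 of 1864 over all genes, at a median of 0.42 against 0.24. Of 46 nuclear genes of oxidative phosphorylation, Cox5a fell (-0.91 ± 0.26, adjusted p = 0.037) and none rose, and 36 had a negative difference, with a median of -0.25. This 1 call compares with 4.08% of all genes called lower, and with library size alone the median was 0.04 against 0.24 over all genes. Cox5a did not pass without the myeloid-rich cell (adjusted p = 0.080) or with any 1 of 6 libraries left out, and could not be tested without Dlk1- replicate 4. Of the 15 transcripts of the mitochondrial genome none passed, with a median of -0.05, and mt-Rnr2, the large ribosomal RNA, was nearest at -0.18 ± 0.07 (adjusted p = 0.092). With library size alone 8 of the 15 were higher, against 273 of 1864 over all genes, at a median of 0.25 against 0.24. With cells thinned to 2000 UMIs 3 of 13 were lower, against 30 of 505 over all genes, at a median of -0.27. mt-Rnr2 passed after matching on depth (-0.23, adjusted p = 0.047) and without cells with replication and mitosis transcripts (-0.38, adjusted p = 0.0079).

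B2m and H2-D1, the light chain and a heavy chain of MHC class I, rose by 0.24 ± 0.07 (adjusted p = 0.039) and 0.26 ± 0.08 (adjusted p = 0.040) among 7 genes of that pathway tested, and H2-D1 did not pass without the myeloid-rich cell (adjusted p = 0.052). With 1 library left out, B2m passed in 3 of 7 fits and H2-D1 in 2 (without Dlk1- replicate 4 and without Dlk1+ replicate 2). Of 7 genes of retinoid handling and detoxification, Cyp26b1 rose and Gpx1, a glutathione peroxidase, fell (-0.43 ± 0.13, adjusted p = 0.049), the latter not passing without the myeloid-rich cell (adjusted p = 0.26) or with any 1 library left out other than Dlk1- replicate 4. Of 10 megakaryocyte and platelet genes tested, Vwf rose and Cd9 fell, the latter not without the myeloid-rich cell, with a median of 0.03, and of 13 genes of adhesion, clotting and matrix cross-linking, Vwf and Procr rose and Cd9 fell, with a median of 0.14. Calls of 1 or 2 genes in lists of this size are to be read beside the 3.11% and 4.08% called over all genes. Of 10 genes of quiescence and cell cycle inhibition, Ccnd2 rose and Cdk6 fell, with a median of 0.18. No gene was called among 12 chaperones, 9 cytokine and niche receptors, 4 genes of the integrated stress response, 2 interferon response genes or 1 p53 target, and no B cell, T cell or stromal gene was abundant enough to test.

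The imprinted genes Dlk1 and Meg3 lie next to each other on chromosome 12 (chr12:109452823-109463336 and chr12:109541001-109571726, both plus strand). Both were higher in high cells, as the 2 called of 6 imprinted genes tested (median 0.14), against 3.11% of all genes called higher. No imprinted gene was called after matching on depth or without cells with replication and mitosis transcripts. In the Dlk1- libraries alone 0 were called higher, and in the Dlk1+ libraries alone 2 were. Dlk1, whose protein defined the sorts, had 6.50, 119 and 861 CPM in the high tercile against 0, 55.4 and 757 CPM in the low tercile, higher in 6 of 7 libraries (1.06 ± 0.23, adjusted p = 0.0030). Meg3, a long noncoding RNA, had 67.9, 255 and 823 CPM against 42.3, 144 and 337 CPM (0.99 ± 0.23, adjusted p = 0.0081). Levels between libraries spanned far more than the difference between terciles. Without Dlk1+ replicate 4 the differences were 0.46 (adjusted p = 0.41) and 0.41 (adjusted p = 0.38), and neither passed. In the Dlk1+ libraries 80.3% of high cells, 78.5% of middle cells and 65.6% of low cells had a Dlk1 UMI (median depths 3861, 4535 and 4305 UMIs), and in the Dlk1- libraries 7.92%, 5.66% and 3.96% did (4866, 4922 and 4988 UMIs). These shares are a description.

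**Figure D5:**
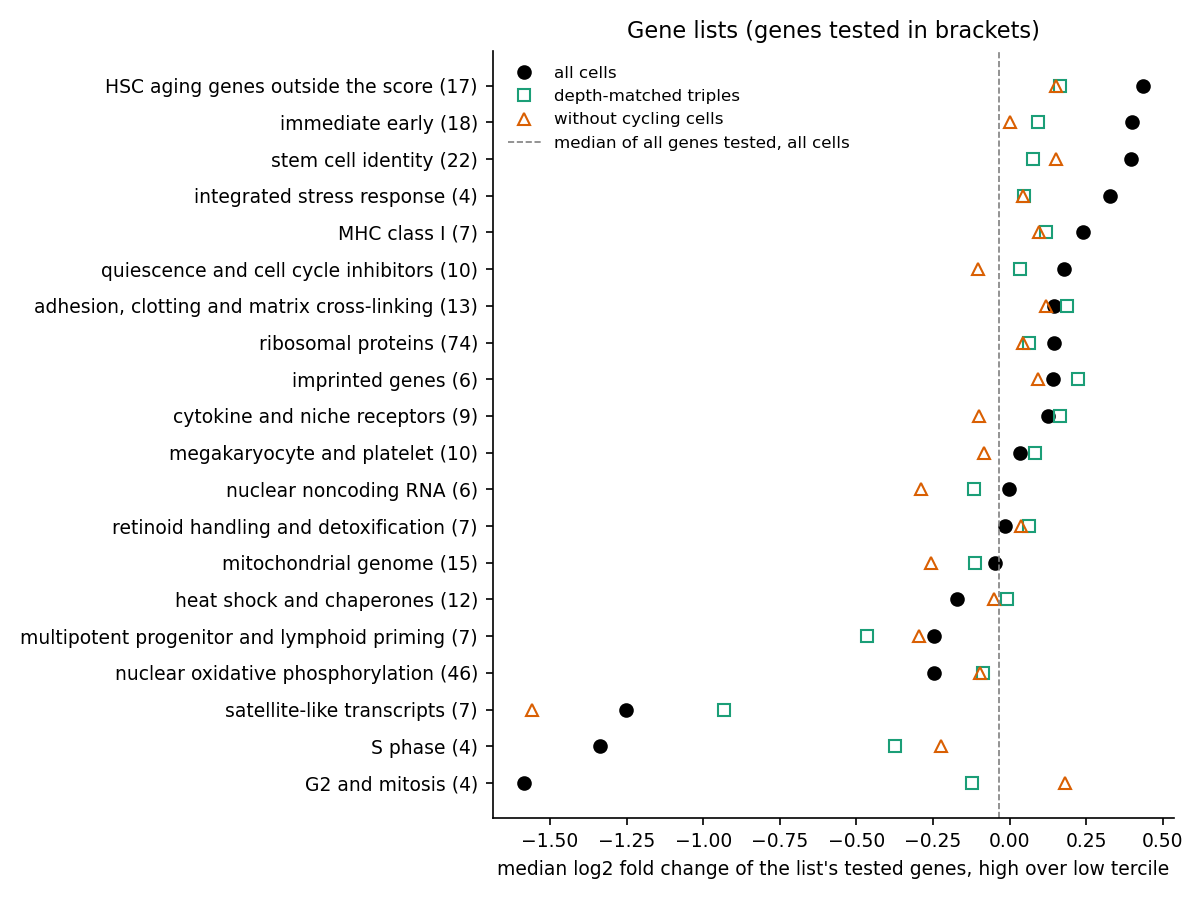
Median log2 fold change, high over low tercile (horizontal axis), of the tested genes of each list of at least 4 genes (vertical axis, genes tested in brackets), for all cells, for groups of 3 cells matched on total transcripts and without cells with replication and mitosis transcripts, with the median of all genes tested (-0.04) as a dashed line. The aging, immediate early and stem cell lists have medians of 0.40 to 0.44 in all cells and 0.08 to 0.16 when matched. The satellite-like list has -0.93 to -1.56 in all 3, and its members Gm10800 and Gm26870 are part of the score's denominator. Without cells with replication and mitosis transcripts the S phase and mitosis medians rest on 1 gene each.

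The lower genes with the smallest p-values were predicted gene models. Gm10800 (chr2:98666547-98667301, minus strand) and Gm26870 (chr9:3000282-3038313, minus strand) together made up 7.16%, 15.7% and 20.6% of a cell's transcripts in the high tercile (lowest, median and highest of the library medians) and 8.66%, 30.6% and 36.3% in the low tercile, lower in 7 of 7 libraries (mean difference -9.76 percentage points, SD 7.41). These transcripts are part of the denominator of the score, so a cell rich in them scores low by construction, and the difference is not an independent result. When they and mitochondrial transcripts were left out of the denominator, their share was lower in 4 of 7 libraries and differed by -2.30 points (exact sign-flip permutation test, two-sided, adjusted p = 0.41 over 3 measures). With that denominator, and these transcripts also left out of the summed counts, 126 genes were higher and 61 lower. The log2 fold changes of Vwf, Cyp26b1 and Procr were then 1.25, 2.08 and 1.53.

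Of the 76 genes called lower, 30 were such predicted or unnamed models and of the 58 called higher none was, among 80 tested. Transcripts of 26 of the 30 were found in GENCODE M21, and 24 of these shared at least 1 stretch of 25 bases with another of them. Reads from shared stretches cannot be told apart with certainty. Such stretches were 0.804% (Gm37880) to 93.6% (Gm21962) of all 25-base stretches of a model. The 24 models fell into 4 groups, the largest of 15 models, which holds Gm21833, Gm29055, Gm37158, Gm37954, Gm21962 and A430073D23Rik, and one of 5 with Gm10800, Gm26870, Gm10715, Gm10717 and Gm10719. A 66-base stretch common to those 5 is shown, because it is what ties the most abundant of these models together. Of the 7 models on the list of satellite-like transcripts, 6 fell, with a median of -1.25 in all cells and -0.93 matched on depth. Gm10800 and Gm26870 of that list are part of the score's denominator in both settings. With them and mitochondrial transcripts left out of the denominator and the summed counts, 3 of 5 fell (median -0.70), against 61 of 1710 genes. Matched on depth as well, 1 of 5 fell (median -0.61), against 12 of 1796 genes.
Shared stretch: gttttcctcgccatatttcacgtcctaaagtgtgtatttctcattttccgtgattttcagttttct
Gm21833 (chr16:82828382-82829881, plus strand) had 644, 1260 and 2972 CPM in the high tercile and 2069, 2374 and 22265 CPM in the low tercile (-1.83 ± 0.17, adjusted p = 3.3e-08). Its difference was -0.88 matched on depth (limma, adjusted p = 0.00047) and -2.19 without cells with replication and mitosis transcripts (adjusted p = 3.9e-07). With Gm10800, Gm26870 and mitochondrial transcripts left out of the denominator and the summed counts it was -0.99 (limma, adjusted p = 5.3e-05). The log2 fold changes were -1.59 for Gm29055, -1.79 for Gm37158 and -1.68 for Gm37954.

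Further measures of the cells were compared over libraries. At 2000 UMIs a high cell had a median of 1009 ± 45 genes (mean ± SD of 7 library medians) and a low cell 939 ± 101, higher in 6 of 7 libraries (exact sign-flip permutation test, two-sided, p = 0.047, adjusted p = 0.070 over 3 measures, smallest possible p = 0.016). With Gm10800, Gm26870 and mitochondrial transcripts out of the denominator the difference was 11.7 genes. The mitochondrial share was 11.1% ± 1.27 in high cells and 10.7% ± 2.31 in low cells (exact permutation p = 0.53, adjusted p = 0.53).

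No gene's high-low difference was called different between the sorts. The interaction of tercile and sort was called in 0 of 1864 genes (0%) in limma, with 86 at an unadjusted p under 0.05 (4.61%). For Vwf the difference was 1.47 in the Dlk1- libraries (adjusted p = 0.0023) and 0.73 in the Dlk1+ libraries (adjusted p = 0.24), with an interaction of -0.76 (adjusted p = 0.99). For Cyp26b1 it was 1.35 and 1.30, for Procr 0.86 and 1.52, and for Top2a -3.51 and -4.52. That no interaction passed does not show that the sorts were alike.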

How the data were processed

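Single stem cells had been profiled in plates by mCEL-Seq2, and the authors' deposited tables give estimated transcripts per gene and barcode. Per the submitters' processing notes, BWA 0.6.2-r126 and build mm10 were used, and their settings, the annotation and any filters are not given in the sources used here. The deposited values (unit recorded as other) are counts of UMIs corrected for collisions of 4096 UMIs, and undoing that gave whole UMIs for every value, within 1e-06. Barcodes 1 to 96 of a Dlk1+ table and 97 to 192 of a Dlk1- table were used, without 17, 20 to 24 and 29 to 32 in Dlk1+ tables. Transcripts were summed per library and tercile, score genes left out, and rounded. Genes needed 10 counts at the median total in at least as many sums as libraries and 15 in all. TMM factors, limma-voom (limma 3.58.1, R 4.3.3) with library as a block and Benjamini-Hochberg adjustment at 0.05 gave the tests, in place of edgeR as planned, because the deposited unit is not plain counts. The steps were tested on simulated data. Sums held 22794 to 197097 counts, so genes below about 100 CPM rest on few UMIs per library. Named genes were up to 15 per direction with the smallest adjusted p among those moving the same way in every library, plus the members called in each list and up to 3 others, and some genes that meet the rule are not reported here. The rule, the members and the lists were chosen with earlier results of these data known. Coordinates are from GENCODE M21 (mm10). Doublets were not called. High and low sums of a library deviated together (r from 0.11 to 0.20 across genes), which the block takes up. The closing section gives the alternatives.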

Additional observations from a re-analysis of the deposited data

Results flagged for a closer look

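In 46 sets of 7 library values, 5 had a highest or lowest library whose gap to the others exceeded Dixon's limit, where chance gives about 1 in 20. Trim47 had a log2 ratio of high to low tercile of 1.62 in Dlk1- replicate 2, against 0.42 to 0.81 in the other libraries. Gm21962 had -8.18 in Dlk1+ replicate 2, where it had no UMI in the high tercile, against -2.70 to -0.55. With cells split by the other 7 score genes, Clu had 7.85 in Dlk1- replicate 2, where it had no UMI in the low tercile, against -0.60 to 1.54. In the same comparison Ehd3 had -1.59 in Dlk1+ replicate 2, against 0.49 to 1.56, and Gda had 1.46 in Dlk1- replicate 4, against 0.61 to 0.97. Dlk1- replicate 2 and Dlk1+ replicate 2 had 11 and 8 cells per tercile, the fewest of the 7 libraries.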

How the results depend on the processing

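The high and low counts (58 and 76 genes) were recomputed under every alternative. With Gm10800, Gm26870 and mitochondrial transcripts left out of the score and of the summed counts, 126 genes were higher and 61 lower. Below, these are called satellite-like and mitochondrial transcripts. Genes higher and lower numbered 18 and 59 with the 8 genes weighted equally, 6 and 28 in depth-matched groups of 3, and 1 and 30 with cells thinned to 2000 UMIs. They numbered 273 and 44 with library size alone, where the median of all genes shifted to 0.24, 11 and 23 with limma-trend, 91 and 170 without a filter, and 31 and 108 at a mean of 20 counts. With no replicate block they numbered 12 and 35, and the interaction with sort fitted with a replicate block called 0 genes. Within sorts and plates they numbered 27 and 46 (Dlk1-), 10 and 45 (Dlk1+), 10 and 63 (plate 5) and 60 and 47 (plate 6). Alternatives chosen after seeing the data gave 1 and 31 without cycling cells, 3 and 16 also without satellite-like and mitochondrial transcripts, and 11 and 12 in depth-matched groups without these transcripts. Median-of-ratios factors, other splits (at the median, or narrower outer groups), other depth minima, the 10 barcodes kept and very deep cells left out moved neither count by over 1.5 times. Leaving out 1 library gave 29 to 70 higher and 57 to 81 lower, with 29 without Dlk1+ replicate 4 and 38 without Dlk1- replicate 3. edgeR and DESeq2 were not run.

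The interaction with plate called 2 genes (Gm10800 and Gm26870), and leaving out 1 library gave 0 to 5 genes for sort, with 5 (Gm21833, Gm29055, Gm37158, Gm37746 and A230046K03Rik) without Dlk1+ replicate 4. Left-out score genes matched on depth differed by 0.41 (Selp), 0.28 (Nupr1), 0.42 (Sult1a1), 0.48 (Gda) and 0.15 (Tgm2) and did not pass, nor did Selp (0.30), Gda (0.53) and Tgm2 (0.19) when thinned. Leaving out 1 library gave Selp 0.54 to 0.81, Nupr1 0.79 to 1.03, Aldh1a1 -0.0591 to 0.101 (-0.0493 without Dlk1- replicate 2, -0.0591 without Dlk1+ replicate 1), Clu 0.56 to 0.86, Gda 0.49 to 0.70 and Tgm2 0.46 to 0.64. The share of Gm10800 and Gm26870 differed by -11.1 to -8.24 points, without reaching the threshold in most of these, since 6 libraries allow few small p-values, and by -2.30 points with them out of the score. Genes per cell at 2000 UMIs differed by 60.0 when thinned before the score and 91.1 with equal weights, both past the threshold, and by 56.3 to 84.8 without 1 library. Named genes turned sign in 16 cases: mt-Rnr2 0.13 with library size alone; Tuba1a 0.0481, Tubb4b 0.0855, Dut 0.0591 and Smc4 0.19 matched on depth; Tuba1a 0.26 and 0.33 and Tubb4b 0.18 and 0.36 without cycling cells, all transcripts and satellite-like and mitochondrial ones left out; Tubb4b 0.23 matched without those; Egr1 -0.0200 and Ly6a -0.0421 without cycling cells; Mllt3 -0.15, Jund -0.0268 and Rps9 -0.0238 when thinned; mt-Rnr2 0.00039 on plate 6. The cause was not tested. Same-numbered Dlk1- and Dlk1+ libraries shared deviations only weakly (r = 0.112, 0.0655 and 0.0658 across genes), so their numbers were not taken as pairs, although they also share a plate. Of the list medians under the alternatives, 62 moved by more than the spread between libraries and 553 did not. Library medians of 2 to 16 score UMIs per cell limit the ranking.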
